A study of Mus musculus with 6 samples.

Results

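The genes described here encode the machinery that copies DNA, and their RNA was compared in CD4+CD8+ double-positive thymocytes with and without a working Ets1 gene. The 41 genes come from a list drawn up by function and were divided by role into origin licensing, origin firing, polymerases with the sliding clamp, and nucleotide supply. A gene was measured where an array probe set named it and no other gene, and its brightest such probe set was used. This held for 39 of the 41, out of 22180 genes measured in all. Ccne2, the second cyclin E gene, and Rfc4, a clamp-loader subunit, shared their probe sets with other genes and were not analysed here.

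The wild-type group held 3 arrays of C57BL/6 wild-type mice and the other group 3 arrays of Ets1-/- mice, all aged 5 to 6 weeks, and litter-mate cohorts served as replicates. Ets1 is a lymphocyte transcription factor of the ETS family. Per the labels, thymus cells were crosslinked with formaldehyde and then captured on beads, first through CD8 and then through CD4, so every array measured a bulk population. The sources used here do not say how the Ets1 allele was made or whether an array held 1 animal or several, and p-values measure the spread among these arrays only. Array values are log2 signals, a difference of 1 being a doubling.

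DNA replication begins when the origin recognition complex, Cdc6 and Cdt1 load the ring-shaped Mcm helicase onto origins during G1, which is called licensing. Cyclin E and its kinase, Cdc45, Mcm10 and the GINS complex then turn the loaded ring into an active helicase as S phase starts. In the thymus, cells divide rapidly as they pass the pre-T-cell receptor checkpoint and become double positive, after which most double-positive cells rest. E2F transcription factors drive many replication genes at the G1 to S transition.

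One array stood apart and touches every value below. Over all probe sets the median log2 signal was 3.66 for Ets1-/- replicate 1 and 4.19 to 4.33 for the other 5 arrays. The median difference over all genes, Ets1-/- minus wild type, was -0.22, and it became -0.01 once each array was centred on its own median. Ets1 itself had a difference of -0.10 ± 0.23 (SE; limma adjusted p = 0.860). It is not known whether its probes lie in the deleted part, so its level is no check of the genotype.

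The replication genes lay lower in the Ets1-/- arrays almost throughout, but no single one passed the test. Of the 39, 37 had a difference below 0, against 16190 of all 22180 genes. Among the 10098 genes within their range of mean signal, 6805 were below 0. The median difference of the 39 was -0.90, which is -0.67 relative to all genes. The largest differences were those of Lig1 at -1.41, Rpa2 at -1.39, Gins1 at -1.37, Gins3 at -1.32 and Cdt1 at -1.32. Of these genes Gins3 had the lowest signal, and its difference was -0.77 with 16 added on the linear scale. In limma, 0 of the 39 had an adjusted p under 0.05 in either direction, where 0.568% of all genes were called lower and 1.29% higher. At an unadjusted p under 0.05 the counts were 22 lower and 0 higher, against 8.62% and 4.54% of all genes. On simulated data the adjusted test called 0.4% of genes with a log2 change of 1. A gene without a call is therefore not shown to be unchanged.

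In 22 of the 39 genes (56.4%) every Ets1-/- array lay below every wild-type array, and in 1 gene, Rpa3, every Ets1-/- array lay above. Over all genes these shares were 16.1% and 5.76%. Among the 10098 genes whose mean signal fell within the range of the replication genes, they were 18.9% and 8.77%. With arrays centred on their medians, 16 of the 39 (41.0%) remained apart downwards, against 9.3% of all genes. Of the 39 centred differences 36 were still below 0, against 11314 of all 22180 genes. A difference of -1 or below was found for 19 of the 39 (48.7%), against 3.5% of all genes. That count was 7 after centring (2.03% of all genes) and 4 without Ets1-/- replicate 1 (2.46%). Without that array 36 of the 39 differences were below 0, against 11641 of all 22180 genes. The median of the 39 was then -0.52 relative to all genes.

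The number of replication genes called lower depended on the treatment of the values, as given here with the share of all genes called lower in the same fit. It was 3 with arrays centred (Lig1, Orc1 and Gins1; 0.902%), 4 with quantile normalization (1.28%), 5 with 16 added on the linear scale (1.91%) and 11 with both of the latter (2.69%). Quantile normalization called Lig1, Mcm3, Gins1 and Orc1, the pseudocount added Orc6 to these, and both together added Pcna, Mcm4, Prim1, Pole, Rrm2 and Cdc45. An intensity trend with a robust prior also gave 11 (2.5%), among genes above the median signal the count was 2 (2.27%), and among those above the 75th percentile it was 4 of 30 (4.96%). It was 0 with the mean of a gene's probe sets (0.564%) and with the replicate number as a block (0.28%). It was also 0 when any 1 array was left out, and the share over all genes was then 0.194%, 0.171% and 0.198% for the wild-type arrays taken in order, and 0.464%, 0.203% and 0.397% for the Ets1-/- arrays. In bulk samples, fewer replicating cells and less of these RNAs per cell cannot be told apart.

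**Figure D1:**
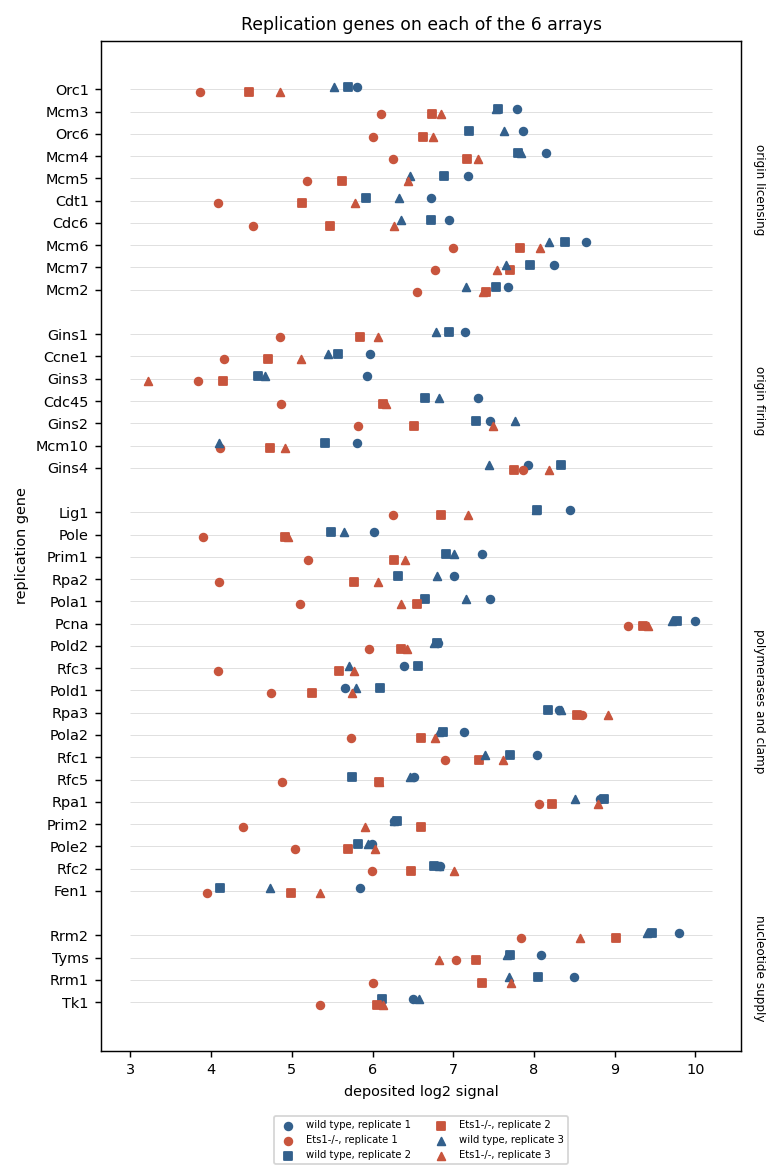
Deposited log2 signal of the 39 replication genes (vertical axis, by role) on each of the 6 arrays, with wild-type arrays in blue, Ets1-/- arrays in red and a marker shape for each replicate number. Ets1-/- points lie to the left of the wild-type points for most genes, with the circle of Ets1-/- replicate 1 lowest of the 3 Ets1-/- arrays in 35 of the 39.

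The promoters of these genes are shown because they carry a feature that the choice of genes did not use. RefSeq promoters of GRCm38.p6, running from 250 bases before to 50 bases after a start, were found for 33 of the 41 genes, 38 promoters in all. The E2F words were TTCCCGC as the first, TTCGCGC as the second, TTGCCGC as the third and TTGGCGC as the last, searched on both strands. At least 1 was present in 23 of the 38 promoters (60.5%), against 9.57% of all 32851 promoters in the table and 12.1% of those of genes measured here. The ETS-family word CCGGAAG was present in 11 (28.9%), against 8.86% and 11.4%, and the shorter CCAAT in 22 (57.9%), against 37.4% and 37.7%. A match describes the letters only. The 200 bases before the start are given for Orc1, Mcm6 and Pola1, which lay lower in Ets1-/-, and Rpa3, which lay higher. These 4 are examples that no stated rule picked. All of them hold an E2F word and all but Mcm6 the ETS word, so they do not stand for the 38 promoters. The stretches are printed 5′ to 3′ on the gene's strand, with E2F and ETS words in capitals. They lie at chr4:108579254-108579453 (plus strand), chr1:128359706-128359905 (minus strand), chrX:93632156-93632355 (minus strand) and chr6:8259142-8259341 (minus strand).
Orc1: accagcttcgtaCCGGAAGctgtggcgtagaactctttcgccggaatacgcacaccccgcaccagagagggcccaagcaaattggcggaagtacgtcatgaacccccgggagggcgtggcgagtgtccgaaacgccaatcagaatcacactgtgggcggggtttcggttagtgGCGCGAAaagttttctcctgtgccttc
Mcm6: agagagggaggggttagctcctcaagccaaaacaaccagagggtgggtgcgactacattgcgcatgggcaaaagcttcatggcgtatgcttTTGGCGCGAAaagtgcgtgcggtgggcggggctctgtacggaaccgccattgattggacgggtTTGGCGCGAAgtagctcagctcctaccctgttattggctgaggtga
Pola1: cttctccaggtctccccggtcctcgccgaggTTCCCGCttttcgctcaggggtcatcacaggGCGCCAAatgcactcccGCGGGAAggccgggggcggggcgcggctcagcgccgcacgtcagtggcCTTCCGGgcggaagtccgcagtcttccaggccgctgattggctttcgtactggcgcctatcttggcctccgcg
Rpa3: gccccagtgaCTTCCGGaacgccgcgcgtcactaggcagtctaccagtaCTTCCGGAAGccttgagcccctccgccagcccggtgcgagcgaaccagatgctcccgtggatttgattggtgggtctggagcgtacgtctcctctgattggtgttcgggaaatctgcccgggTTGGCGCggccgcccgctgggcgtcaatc
In Orc1 the ETS word begins 188 bases and the E2F word 27 bases before the start. Mcm6 holds overlapping pairs of E2F words that begin 109 and 106 bases and again 46 and 43 bases before the start, and no ETS word. Pola1 has E2F words beginning 169, 138 and 121 bases and an ETS word 73 bases before the start. Rpa3, the gene that lay higher in every Ets1-/- array, has ETS words beginning 190, 151 and 148 bases and an E2F word 29 bases before the start.

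Among genes with both a signal and a promoter, the 20 with an E2F word in any promoter had a median difference of -1.08, with a range from -1.41 to 0.41. The 12 without one had a median of -0.56 and a range from -1.21 to -0.34. With and without the ETS word the medians were -1.08 for 10 genes and -0.69 for 22. The groups were apart downwards in 12 of the 20 genes with an E2F word and 7 of the 12 without, and in 6 of the 10 with the ETS word and 13 of the 22 without. These values are descriptions and were not tested. Counted per gene, the E2F share was 63.6% of the 33 genes. It was 42.4% when the 50 bases after the start were left out, against 9.01% of all genes in the table and 11.4% of those measured here, because several matches, such as those of Lig1 and Mcm3, lie just downstream of it.

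**Figure D2:**
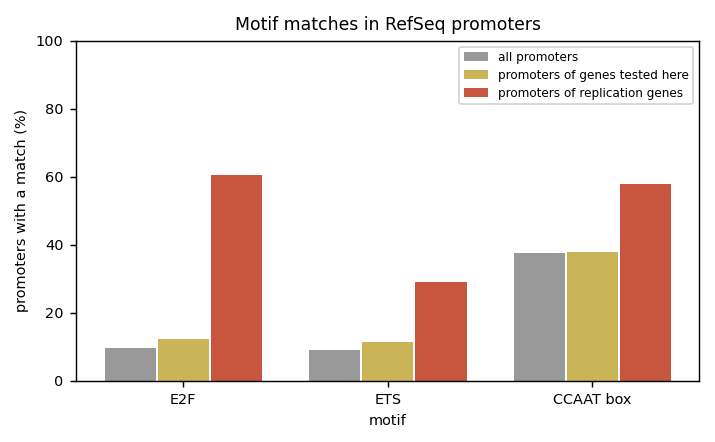
Percentage of RefSeq promoters with at least 1 match (vertical axis) for each motif (horizontal axis), with grey bars for all 32851 promoters in the table, yellow for promoters of genes measured here and red for the 38 promoters of replication genes. The red bar is the highest for each motif, at 60.5% for E2F words against 9.57% for all promoters.

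All 10 origin licensing genes had differences below the median of all genes, from -1.32 to -0.34 with a median of -1.08, and in 8 of them the groups were apart, against 16.1% of all genes. After centring the groups were apart in 5 of the 10, against 9.3% of all genes, with Cdc6, Mcm5 and Mcm6 no longer among them. Orc1, the subunit of the origin recognition complex whose level rises in G1, had log2 signals of 5.81, 5.70 and 5.52 in wild-type replicates 1 to 3 and 3.86, 4.47 and 4.85 in Ets1-/- replicates 1 to 3. Orc6, a further subunit of that complex, had 7.86, 7.20 and 7.63 against 6.00, 6.62 and 6.74. Every Ets1-/- array was below every wild-type array for both, with differences of -1.28 ± 0.30 and -1.11 ± 0.30 (SE; limma adjusted p = 0.0896 and 0.139). These were -1.01 and -0.88 without Ets1-/- replicate 1. The other subunits, Orc2, Orc3, Orc4 and Orc5, which are not among the 41 and were picked after their values were seen, had differences of -0.20, -0.18, -0.08 and -0.38 (limma adjusted p from 0.539 to 0.885).

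The loaders of the helicase lay lower by a similar size. Cdc6 averaged 6.68 ± 0.30 on wild-type and 5.42 ± 0.88 on Ets1-/- arrays (SD over 3 arrays), a difference of -1.26 ± 0.43 (SE; limma adjusted p = 0.263). Cdt1, which Cdc6 works with, averaged 6.32 ± 0.40 and 5.00 ± 0.85, a difference of -1.32 ± 0.44 (SE; adjusted p = 0.246). The wide spread in Ets1-/- came with low values on replicate 1, at 4.51 for Cdc6 and 4.08 for Cdt1. Without that array the differences were -0.81 and -0.86.

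The Mcm subunits, which together form the ring of the helicase, differed in how far they lay apart. Mcm3 had 7.79, 7.56 and 7.53 in wild type and 6.10, 6.73 and 6.84 in Ets1-/-. Mcm4 had 8.15, 7.80 and 7.84 against 6.25, 7.18 and 7.31. Mcm5 had 7.18, 6.89 and 6.47 against 5.19, 5.62 and 6.44. The groups were apart for these 3 subunits, although for Mcm5 wild-type replicate 3 and Ets1-/- replicate 3 nearly met. Their differences were -1.07 ± 0.27, -1.02 ± 0.32 and -1.10 ± 0.36 (SE; limma adjusted p = 0.117, 0.216 and 0.241). Without Ets1-/- replicate 1 they were -0.84, -0.69 and -0.82.

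Mcm6 had 8.64, 8.39 and 8.19 in wild type and 6.996, 7.83 and 8.08 in Ets1-/-. Mcm7 had 8.24, 7.96 and 7.65 against 6.78, 7.70 and 7.55, and Mcm2 had 7.67, 7.53 and 7.16 against 6.55, 7.41 and 7.37. Only Mcm6 of this trio kept the groups apart, and after centring its groups overlapped too. The differences were -0.77, -0.61 and -0.34 with limma adjusted p of 0.366, 0.473 and 0.648, and the 95% interval for Mcm2 ran from -1.05 to 0.37. Without Ets1-/- replicate 1 they were -0.45, -0.32 and -0.06. Whether the subunits differ from one another in their response was not tested.

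Of 7 firing factors measured, 6 lay below 0, against 16190 of all 22180 genes. The median difference of the 7 was -1.01. The groups were apart downwards in 4, against 16.1% of all genes, and in 4 after centring, against 9.3%. Gins1, a subunit of the GINS complex that binds the Mcm ring, had 7.15, 6.95 and 6.79 in wild type and 4.85, 5.85 and 6.07 in Ets1-/-, a difference of -1.37 ± 0.34 (SE; limma adjusted p = 0.116). That difference was -1.004 without Ets1-/- replicate 1. Gins3 had 5.93, 4.58 and 4.66 against 3.84, 4.14 and 3.22, a difference of -1.32 ± 0.42. Its signal was near the middle of all genes (percentile 53.4), and wild-type replicate 1 stood well above the other wild-type arrays. Relative to the median over all genes of each array, Gins3 had 1.64, 0.24 and 0.25 against 0.10, -0.28 and -1.12. Its difference was -0.77 with 16 added on the linear scale, and -1.38 without Ets1-/- replicate 1. Gins2 had a difference of -0.90 with overlapping groups, and -0.50 without Ets1-/- replicate 1. Gins4, the remaining subunit, had 7.93, 8.34 and 7.44 against 7.87, 7.75 and 8.18, and its difference of 0.03 had a 95% interval from -0.64 to 0.70. The GINS subunits thus ranged from -1.37 to 0.03. The probe set of Gins4 was the only one naming it.

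Ccne1 encodes cyclin E1, the partner of Cdk2 at the entry to S phase. It had 5.97, 5.57 and 5.45 in wild type and 4.15, 4.70 and 5.12 in Ets1-/-, with no overlap and a difference of -1.01 ± 0.31 (SE; limma adjusted p = 0.199). That difference was -0.75 without Ets1-/- replicate 1. Cdc45, which completes the active helicase, averaged 6.93 ± 0.34 on wild-type and 5.72 ± 0.74 on Ets1-/- arrays (SD over 3 arrays), with the groups apart. Its difference was -1.21, and -0.78 without Ets1-/- replicate 1. Mcm10, a factor needed for helicase activation, had 5.81, 5.42 and 4.09 against 4.11, 4.73 and 4.91. One wild-type array lay at the level of the lowest Ets1-/- array there, and the difference of -0.52 ± 0.46 (SE) was close to its own error and was -0.28 without Ets1-/- replicate 1.

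**Figure D3:**
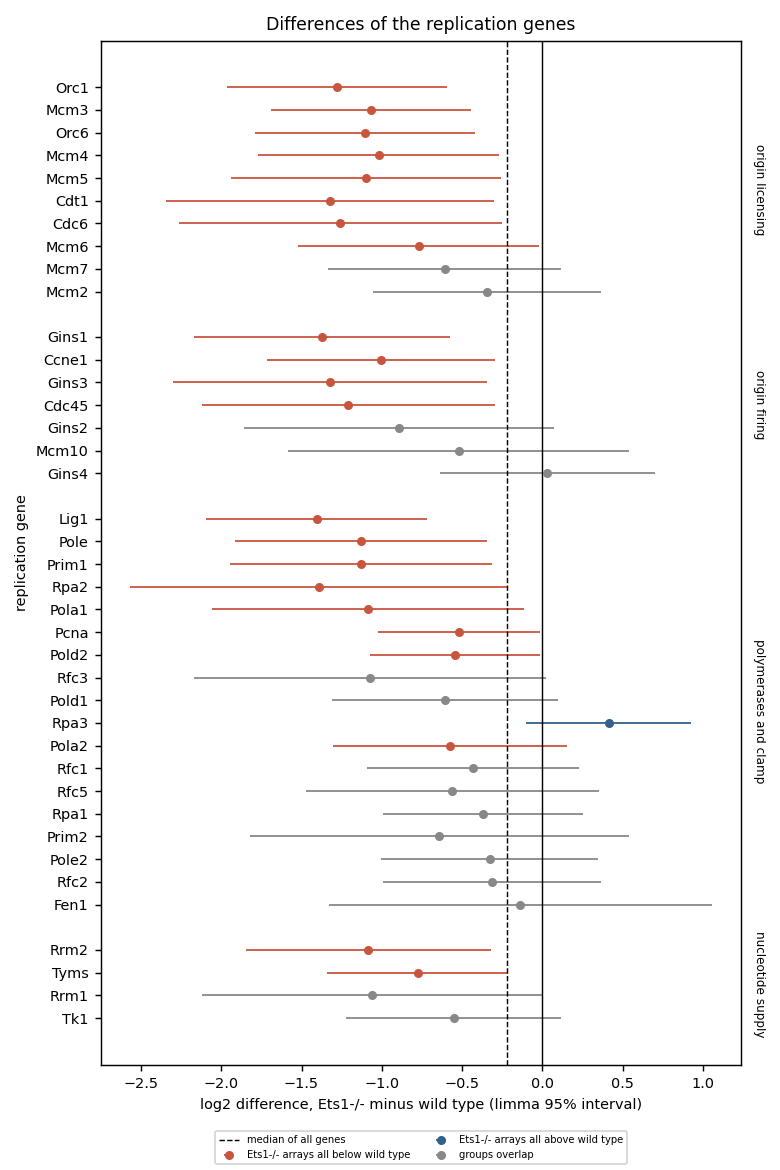
Log2 difference of each replication gene, Ets1-/- minus wild type, with the limma 95% interval (horizontal axis), by role; the dashed line marks the median of all genes at -0.22. Red points are genes whose Ets1-/- arrays all lay below the wild-type arrays (22), grey points genes with overlapping groups (16), and the blue point is Rpa3.

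The polymerase, clamp and single-strand binding genes were the most varied role. Of 18 measured, 17 lay below 0, with a median of -0.57, against 16190 of all 22180 genes. The groups were apart downwards in 8, against 16.1% of all genes. After centring, 16 lay below 0 and the groups were apart downwards in 6, against 9.3% of all genes. Lig1, the ligase that joins Okazaki fragments, had the smallest p of all 39 genes. Its signals were 8.44, 8.04 and 8.03 in wild type and 6.26, 6.85 and 7.18 in Ets1-/-, a 2.65-fold lower level on the linear scale. The difference was -1.41 ± 0.30 (SE; limma adjusted p = 0.0687) and -1.15 ± 0.22 without Ets1-/- replicate 1. Its adjusted p ranged from 0.000319 to 0.229 over the alternatives, and 7 of 15 called it.

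The subunits that start DNA chains differed in size of effect. Prim1, the catalytic subunit of primase, had 7.35, 6.91 and 7.004 in wild type and 5.20, 6.27 and 6.40 in Ets1-/-, a difference of -1.13 ± 0.35 (SE; limma adjusted p = 0.209). That difference was -0.76 without Ets1-/- replicate 1. Pola1, the catalytic subunit of DNA polymerase alpha, had a difference of -1.08 ± 0.42 with groups apart, and -0.64 without Ets1-/- replicate 1. Pola2, its regulatory partner, and Prim2, the large primase subunit, had differences of -0.57 and -0.64, and that of Pola2 was -0.26 without the same array. For Prim2 the 3 wild-type arrays spanned 6.26 to 6.30, while Ets1-/- arrays were at 4.40, 6.60 and 5.91, and the difference was -0.02 without replicate 1.

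The elongating polymerases and the clamp followed. Pole, the catalytic subunit of polymerase epsilon on the leading strand, had 6.01, 5.48 and 5.65 in wild type and 3.90, 4.91 and 4.95 in Ets1-/- (difference -1.13 ± 0.34 SE; limma adjusted p = 0.193). The difference of Pole was -0.78 without Ets1-/- replicate 1. Its second probe set had 4.61, 4.90 and 5.72 against 3.38, 4.75 and 4.10, and there the groups overlapped. Pole2, a smaller subunit of the same enzyme, had a difference of -0.33 with overlapping groups, and -0.06 without Ets1-/- replicate 1. Pold1 and Pold2, subunits of polymerase delta, had differences of -0.61 and -0.54, and only Pold2 kept its groups apart; that of Pold1 was -0.35 without the same array.

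Pcna, the sliding clamp that tethers these polymerases, had 9.99, 9.77 and 9.71 in wild type and 9.16, 9.34 and 9.41 in Ets1-/-. The groups were apart, with a difference of -0.52 ± 0.22 (SE; limma adjusted p = 0.366), but they overlapped after centring, where it was -0.31. It had the smallest Ets1-/- spread of all members (SD 0.13). Of the clamp-loader genes, Rfc3 had the largest difference at -1.07, while Rfc1, Rfc5 and Rfc2 were at -0.43, -0.56 and -0.32, and the groups of all 4 overlapped. Without Ets1-/- replicate 1 the values for Rfc3, Rfc1, Rfc5 and Rfc2 were -0.54, -0.24, -0.16 and -0.06. Rfc2 had 6.83, 6.76 and 6.83 in wild type and 5.99, 6.48 and 7.01 in Ets1-/-. Fen1, the nuclease that trims Okazaki fragments, had 5.85, 4.11 and 4.73 against 3.94, 4.99 and 5.35. Its difference of -0.14 (95% interval -1.33 to 1.05) became 0.07 after centring, and its second probe set gave -0.54.

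The subunits of RPA, which coats single-stranded DNA, did not lie on the same side. Rpa2 had a difference of -1.39 ± 0.51 (SE) with groups apart, which was -0.79 without Ets1-/- replicate 1. Rpa1, the large subunit, was at -0.37 with overlapping groups, and at -0.22 without that array. Rpa3, the smallest subunit, had 8.31, 8.17 and 8.33 in wild type and 8.60, 8.53 and 8.92 in Ets1-/-, the opposite order to most replication genes. Its difference of 0.41 ± 0.22 (SE) did not pass the test (limma adjusted p = 0.494). The second Rpa3 probe set had 7.28, 7.25 and 6.94 against 7.92, 7.82 and 8.04, again apart upwards, with a difference of 0.77 ± 0.22.

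Genes of nucleotide supply lay lower in all 4 cases, where 16190 of all 22180 genes were below 0. The groups were apart downwards in 2, against 16.1% of all genes, and in 1 after centring, against 9.3%. Rrm2, the regulated subunit of ribonucleotide reductase, had 9.80, 9.46 and 9.40 in wild type and 7.84, 9.01 and 8.56 in Ets1-/-, a difference of -1.08 ± 0.33 (SE; limma adjusted p = 0.199). The difference of Rrm2 was -0.77 without Ets1-/- replicate 1. Its second probe set gave -1.49. Rrm1, the large subunit, had 8.50, 8.05 and 7.69 against 6.00, 7.35 and 7.71, and its groups met at replicate 3. Its difference was -1.06, and -0.55 without Ets1-/- replicate 1. Tyms, which makes thymidylate, had 8.09, 7.71 and 7.67 against 7.03, 7.29 and 6.82, a difference of -0.78 ± 0.24. Its groups were apart as deposited and overlapped after centring, where it was -0.56. Tk1, the thymidine salvage kinase of S phase, had 6.50, 6.12 and 6.58 against 5.35, 6.06 and 6.13, and its difference of -0.55, or -0.31 without Ets1-/- replicate 1, came with overlapping groups.

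Other genes of the pathway were read from 6 further lists, 83 measured genes in all, of which 4 passed the limma test downwards and 1 upwards. Of all genes, 0.568% passed downwards and 1.29% upwards. In the checkpoint and fork-protection list 3 of 15 fell and 0 rose. Clspn, the adaptor that passes the stalled-fork signal to Chk1, had 7.70, 6.88 and 7.08 in wild type and 4.95, 5.26 and 5.08 in Ets1-/-, a fall of 2.12 on the log2 scale (SE 0.28; adjusted p = 0.00937). This call held in all 15 alternatives run, with an adjusted p up to 0.0412. Atr, the kinase at the head of that pathway, had a difference of -1.78 (adjusted p = 0.0160), and Brca2, which protects stalled forks, -1.43 (adjusted p = 0.0388). The Atr call ended with the mean of its probe sets and on leaving out wild-type replicates 1 or 3 or Ets1-/- replicates 2 or 3, with a highest adjusted p of 0.0650. The Brca2 call ended with the replicate block and on leaving out any array, with a highest adjusted p of 0.132.

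Genes of chromatin copying lay lower as well. In that list 1 of 10 fell and 0 rose, against 0.568% and 1.29% of all genes, and the median difference was -1.24. The groups were apart downwards in 9, against 16.1% of all genes, and in 7 after centring, against 9.3%. Uhrf1, which brings the maintenance DNA methyltransferase to new DNA, had 8.64, 7.92 and 7.92 in wild type and 5.33, 6.12 and 6.72 in Ets1-/-, a difference of -2.10 (limma adjusted p = 0.0450). The call ended with the replicate block and when any array except Ets1-/- replicate 3 was left out (highest adjusted p 0.140). Asf1b, a histone chaperone, and Hells, a chromatin remodeller, were at -1.65 and -1.45 without passing the test.

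Of 16 other licensing and firing factors, 0 passed the test. At an unadjusted limma p under 0.05, 9 were lower and 0 higher, against 8.62% and 4.54% of all genes. All 16 lay below 0, with a median of -0.85, against 16190 of all 22180 genes. After centring 13 of the 16 did, against 11314 of all genes. Ticrr, Wdhd1 and Mcmbp had the smallest p, with differences of -1.23, -1.09 and -0.86. Of 11 other polymerase and clamp genes, 0 passed (3 lower and 0 higher unadjusted), with a median of -0.37. There Top2a, Atad5 and Pold3 had differences of -1.03, -1.09 and -0.72. Of 17 E2F-family, pocket-protein and related genes, 0 passed (6 lower and 0 higher unadjusted), with a median of -0.44. The repressor E2f8, itself a product of S-phase transcription, and E2f3 each had a difference of -1.65 (limma adjusted p = 0.0619 and 0.0741), and Lin9 was at -0.89. E2f1, E2f2 and E2f4, picked after their values were seen, were at -0.24, 0.24 and 0.38.

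The 14 other genes of nucleotide metabolism did not share the pattern. Their median was -0.23, which is -0.01 relative to all genes. In this list 1 gene rose and 0 fell, against 1.29% and 0.568% of all genes. Samhd1, the enzyme that breaks down deoxynucleotides and is abundant in myeloid cells, rose by 3.79 ± 0.29 (SE; limma adjusted p = 0.000979). Its signals were 4.75, 5.51 and 4.63 in wild type and 8.95, 8.59 and 8.73 in Ets1-/-, and the call held in all 15 alternatives run. Dck, the deoxycytidine kinase, and Dctd, the deoxycytidylate deaminase, had differences of -1.06 and 1.25 without passing the test. Dck averaged 9.09 on wild-type arrays, with groups apart downwards. Dctd was dim, averaging 2.67 on wild-type arrays, with overlapping groups and a difference of 0.48 with 16 added on the linear scale.

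**Figure D4:**
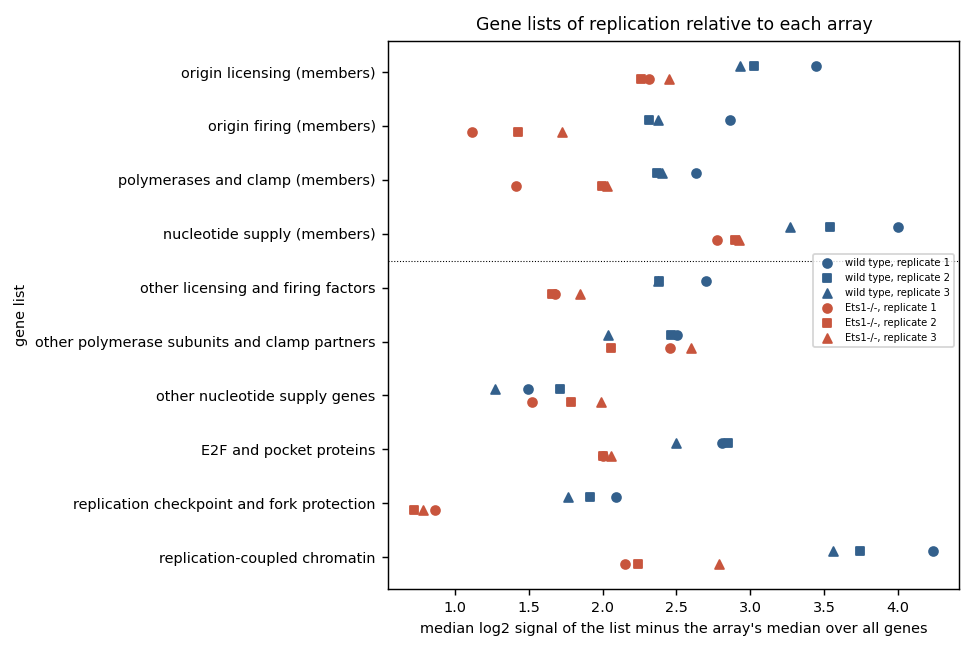
Median log2 signal of each gene list minus the median over all genes of the same array (horizontal axis), for the 4 roles of the replication genes above the dotted line and the 6 further lists below it; blue is wild type, red is Ets1-/-, and marker shapes are replicate numbers. The 3 red and 3 blue points are apart in all 4 roles, with red lower, and overlap for the other polymerase and clamp genes and the other nucleotide genes.

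The arrays also differed in marker genes of several cell types. Of 9 double-positive markers, 1 fell and 0 rose, against 0.568% and 1.29% of all genes. The gene that fell was Tdrd5, at -2.55 (limma adjusted p = 0.00402). Cd4, Cd8a and Cd8b1, which encode the proteins used for capture, were at 0.13, -0.09 and -0.03. The groups were apart downwards in 5 of the 9 (16.1% of all genes), and in 1 after centring (9.3%). Cd4 was apart upwards. The log2 of the summed linear signal of the 9 ran from 13.84 to 13.92 in wild type and 13.61 to 13.69 in Ets1-/-. Of 12 macrophage markers 11 rose, and the log2 sum ran from 9.53 to 9.90 in wild type and 11.99 to 12.40 in Ets1-/-. For 9 B-cell markers, 4 of which rose, it ran from 6.71 to 6.92 and 8.74 to 9.83, for 10 dendritic-cell markers (5 rose) from 8.54 to 8.72 and 11.54 to 11.68, and for 7 markers of mature T cells (4 rose) from 8.27 to 8.65 and 10.11 to 10.52. The dendritic-cell markers that rose were H2-Aa, H2-Ab1, H2-Eb1, Irf8 and Itgax, which B cells or macrophages also make. Xcr1, Zbtb46, Batf3, Flt3 and Siglech were at -1.15, -0.38, -0.25, 0.03 and 0.81 and did not pass the test. Their groups overlapped as deposited, and after centring Siglech was apart upwards and Xcr1 downwards.

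Markers of the dividing double-negative and immature single-positive stages had a median difference of 0.61. The groups were apart upwards in 5 of the 10 and downwards in 1, against 5.76% and 16.1% of all genes. Of 10, 3 rose and 0 fell, against 1.29% and 0.568% of all genes. Those that rose were Cd44, Il2ra and Ptcra at 2.14, 3.17 and 1.50 (limma adjusted p = 0.00353, 0.00864 and 0.0282). The log2 sum of the 10 ran from 11.71 to 11.74 in wild type and 12.02 to 12.18 in Ets1-/-. Hes1 and Slc3a2 were at 3.04 and 1.09, apart upwards, without passing the test (limma adjusted p = 0.0511 and 0.115). The Hes1 signal was dim, at 2.82, 0.26 and 1.23 in wild type and 4.10, 4.81 and 4.51 in Ets1-/-. Its difference was 0.99 with 16 added on the linear scale. Cd24a was at -0.22 with every Ets1-/- array below every wild-type array, and its groups overlapped after centring. Tfrc was at -0.23 with overlap, and neither Cd24a nor Tfrc passed the test. With arrays centred, 5 of the 10 rose and 0 fell, against 545 and 200 of all 22180 genes. Kit, Dtx1 and Myb, the rest of the list, were at 0.10, -0.003 and 0.14 with overlapping groups, and after centring Myb was apart upwards. Of the markers that rose, Cd44 is also made by mature T cells and macrophages. Which cells gave the Il2ra and Ptcra signals was not tested. Erythroid and thymic epithelial markers had 0 of 4 and 0 of 6 past the test (0 of either at an unadjusted limma p under 0.05). The part of any of these cell types in the lower replication signals was not tested.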

How the data were processed

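Total RNA of 6 bulk thymocyte samples was measured on single-channel Affymetrix arrays. The authors deposited a single table of log2 values for 41345 probe sets; that the scale is log2 was read from the values. The submitters' processing notes name affy without a version. Background correction, normalization and genome build: not given in the sources used here.

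Of the probe sets, 23521 named 1 gene in the platform annotation. The brightest of these over the 6 arrays stood for its gene (22180 genes), with no filter on dim signal. Groups were compared in limma 3.58.1 under R 4.3.3 by linear models with empirical Bayes variances, two-sided and without covariates; p-values were Benjamini-Hochberg adjusted over all genes and called at 0.05. The script was tested on simulated data, with 200 changed genes in each of 20 runs. It called 0.4% of genes with a log2 change of 1 and 38.95% of those with a change of 2, and 2.82% of calls were wrong. Promoter words were counted in RefSeq sequences of GRCm38.p6 with Python 3.11.15. Having 3 arrays a group limits every value.

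Shown array by array are the 3 genes of smallest and 2 of largest p in each role, Pcna, Mcm2 to Mcm7, Tyms, Rrm2 and Tk1. Rpa3, Prim2 and the second probe sets were added after their values were seen. From each further list up to 3 genes of smallest p are named, and exceptions are marked. Genes and lists were chosen with earlier results of these data known. Alternatives changed the probe set rule, normalization, signal filter, pseudocount, variance model, replicate block or arrays included. Over all genes, deviations of arrays with the same replicate number from their group means had correlations of -0.07, -0.01 and -0.05. With 3 arrays a group these cannot exclude that such arrays share a litter-mate cohort.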

Additional observations from a re-analysis of the deposited data

How the results depend on the processing

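Of 22180 genes, 126 were lower and 287 higher. With genes above the median signal, genes above the 75th percentile, centred arrays, quantile normalization, a pseudocount of 16, the last 2 together, and an intensity trend with a robust prior, in that order, 264, 310, 200, 285, 423, 596 and 554 were lower. Higher were 545, 513, 484, 754 and 618 under the last 5 of these. Replication genes called lower went from 0 to 2, 4, 3, 4, 5, 11 and 11 in the same order, and genes of the further lists from 4 to 12, 13, 7, 14, 18, 24 and 20. With the replicate number as a block, 62 genes were lower over all, 0 replication genes and 2 of the further lists. Whether arrays of the same number share a litter-mate cohort is not known. Leaving out 1 array gave 38 to 103 lower and 145 to 276 higher genes over all, 0 lower replication genes, and 1 to 3 lower genes of the further lists. The cause of these shifts was not tested. The median of the replication genes relative to all genes was -0.67. Centring, the variance trend and the block cannot move it, and it lay between -0.82 and -0.52 under the others. The sign turned for Gins4 (from -0.20 to 0.25 with 1 array left out) and for Fen1, at 0.072 centred, 0.063 with quantile normalization, 0.0094 with the pseudocount added, and from -0.53 to 0.34 with 1 array left out. It also turned for Ets1 (0.11 centred, from -0.19 to 0.049 with 1 array left out), Orc2 (0.013 centred), Orc3 (0.032 centred) and Orc4 (0.13 centred, from -0.19 to 0.0075 with 1 array left out).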

Other observations

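The arrays of 1 group also differed among themselves in the replication genes. Within wild type, replicate 1 was the highest array for 31 of the 39 genes, and for 34 after each array was centred on its median. Within Ets1-/-, replicate 1 was the lowest for 35 of the 39, and for 22 after centring, when replicate 2 was lowest for 15. The median of the 39 genes minus the array's median over all genes was 2.89, 2.53 and 2.41 in wild-type replicates 1 to 3 and 1.61, 2.06 and 2.08 in Ets1-/- replicates 1 to 3. The SD was larger in Ets1-/- than in wild type for 34 of the 39 genes, with medians of 0.51 and 0.25.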
